A study of Homo sapiens with 23 samples.

Results

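The Polycomb repressive complex genes described here are *EZH1*, *EZH2*, *SUZ12*, *EED*, *JARID2*, *PHF19*, *MTF2*, *CBX2*, *CBX7* and *BMI1*. They are 10 of the 57875 genes listed per sample, chosen by symbol and matched to Ensembl identifiers, and all 10 passed the filter on low counts that left 22842 genes for testing. RNAseq was performed on HCT116, a human colorectal cancer cell line, as wild-type cells and as lines with genotype AGO1-/-, AGO2-/-, AGO1/2-/- (both genes) and AGO1/2/3-/- (all 3 genes), each with 3 replicates at passages 12-18 in McCoy's 5a medium with serum. Argonaute proteins (AGO) carry miRNAs to target RNAs. Each knockout is a single CRISPR-edited line derived from the parental HCT116 cells, so a replicate is a repeat sample of one line, and the p-values measure the spread between such samples, not between independently edited lines.

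Polycomb repressive complex 2 (PRC2) trimethylates a lysine of histone H3, a mark of silent chromatin. Its catalytic subunit is EZH2 or its paralogue EZH1, and SUZ12 and EED are the core subunits that activity requires. JARID2, PHF19 and MTF2 are accessory subunits that help PRC2 reach its targets. Polycomb repressive complex 1 (PRC1) ubiquitinates histone H2A and compacts chromatin. BMI1 is a ring-finger subunit of PRC1, and CBX2 and CBX7 are alternative chromodomain subunits that read the PRC2 mark. *EZH2* is a textbook target of miR-101, and *BMI1* of the miR-200 family.

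The sequences of miR-101, miR-200b, miR-200c and miR-429 are shown because the choice of these genes refers to miR-101 and the miR-200 family. They come from RefSeq (build GRCh38.p14), and capitals mark the seed, bases 2 to 8 of the mature miRNA. miR-200b, miR-200c and miR-429 share the same seed. miR-200a and miR-141 of that family have another seed, AACACUG, and their matches were looked up too.
hsa-miR-101-3p: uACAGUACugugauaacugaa
hsa-miR-200b-3p: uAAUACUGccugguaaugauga
hsa-miR-200c-3p: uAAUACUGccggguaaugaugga
hsa-miR-429: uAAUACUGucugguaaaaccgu

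The reverse complement of the miR-101 seed, GTACTGT, was found 2 times in the 263 bases of the *EZH2* 3′-UTR and 1 time in the 285 bases of the *EED* 3′-UTR (sense strand of the MANE Select transcripts, GRCh38). None of the other 8 genes held it there. Among the 3′-UTRs of tested genes with a length within a factor of 0.8 to 1.25, 1.75% of 970 held it at the length of *EZH2* and 1.82% of 1046 at that of *EED*. The match to the miR-200b, miR-200c and miR-429 seed, CAGTATT, was found 2 times in *MTF2* and 1 time each in *BMI1* and *SUZ12*, and 20.4% to 21.4% of the 3′-UTRs of like length held it. These windows give each match in capitals with its flanks, and the sequence after the match ends at the base opposite the miRNA's base 1.
EZH2 with miR-101, chr7:148807580-148807602 on the minus strand: cttcaggaacctcgaGTACTGTg
EZH2 with miR-101, chr7:148807525-148807547 on the minus strand: ttctgaatttgcaaaGTACTGTa
EED with miR-101, chr11:86278670-86278692 on the plus strand: ttgtttacattctttGTACTGTc
BMI1 with miR-200b, chr10:22330246-22330268 on the plus strand: tgacataacaggaaaCAGTATTg
MTF2 with miR-200b, chr1:93137714-93137736 on the plus strand: tttcaggaatagttgCAGTATTt
MTF2 with miR-200b, chr1:93138862-93138884 on the plus strand: ctaactgaacaccagCAGTATTt
SUZ12 with miR-200b, chr17:32000421-32000443 on the plus strand: atgtgatttgtcatcCAGTATTa
The matches are descriptions of letters and do not show binding. GTACTGT shares its last letters with ACTGTGA, the match of miR-27a, which occurred 1 time each in *BMI1*, *SUZ12* and *CBX2* and not in *EZH2* or *EED*.

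Totals per sample ranged from 27709971 to 45271146 estimated counts. Normalized counts below are these counts scaled by TMM factors to the mean library, and they compare samples for a gene, not genes with each other. *AGO1* RNA fell by 1.89, 1.84 and 2.01 on the log2 scale in the single, double and triple knockouts of *AGO1*, and *AGO3* RNA fell by 1.12 in the triple knockout (edgeR's quasi-likelihood test, adjusted p = 3.41e-06 or lower for these). *AGO2* RNA fell by 0.51 in *AGO2* knockout cells (adjusted p = 0.00518), did not pass the test in *AGO1/2* knockout cells (-0.26, adjusted p = 0.0924) and was 0.40 higher in *AGO1/2/3* knockout cells (adjusted p = 0.00477). Gene-level counts include reads outside an edited site, so the *AGO2* counts do not check the *AGO2* genotype of those lines. A quantification mode is named in the file headers of *AGO2* knockout samples and of no others, so for each *AGO2* knockout value below, mode cannot be told apart from genotype. The epithelial markers KRT8, KRT18, EPCAM, CDH1, CDX2 and VIL1 summed to 1065 to 2056 CPM (counts relative to library size) per sample against 15.3 to 35.0 CPM for the markers of other cell types, a sum carried by *KRT8* and *KRT18*, while *VIL1* was at 9.6 normalized counts or fewer in each sample. In the triple knockout *CDH1* fell by 3.51 (adjusted p = 7.51e-08), *EPCAM* by 1.74 (adjusted p = 6.02e-09) and *CDX2* by 0.58 (adjusted p = 0.00507), and *KRT8* rose by 0.41 (adjusted p = 0.0157). *CDH1* also fell by 1.15 without *AGO1* alone and by 1.66 in the double knockout (adjusted p = 0.00661 and 0.000226).

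*AGO1/2/3* knockout cells held the broadest change of the Polycomb genes. *PHF19*, *MTF2*, *BMI1*, *CBX2*, *EZH2*, *CBX7* and *SUZ12* rose, *EZH1* fell, and *EED* and *JARID2* did not pass the test. The 8 called genes are read against 40.1% of all genes tested that were called in this line, 20.3% higher and 19.8% lower. The replicates of the 8 called genes did not overlap those of wild-type cells, and 50.0% of all genes tested had such separate replicates. The median log2 fold change of the 10 genes was 0.63, beside -0.01 over all genes tested. Each of the 8 was also called by DESeq2, and each remained called with every one of the 15 samples left out in turn. *AGO2* knockout cells held 5 calls, *AGO1/2* knockout cells 1 and *AGO1* knockout cells 0, beside 19.3%, 16.7% and 8.68% of all genes tested. The *AGO1/2* and *AGO1* counts are near those shares.

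**Figure D1:**
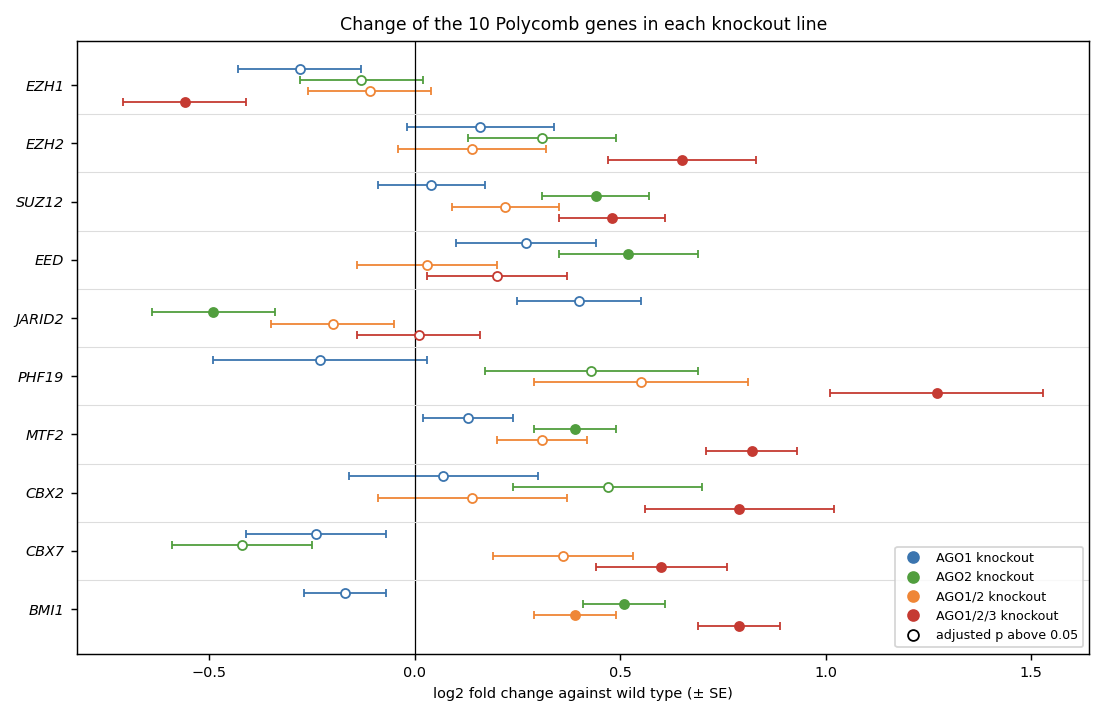
Log2 fold change against wild type (x axis) of the 10 Polycomb genes (rows) in the 4 knockout lines (colours), with the standard error of the edgeR fit as bars and open points where the adjusted p was above 0.05. The *AGO1/2/3* points of *PHF19* (1.27), *MTF2* (0.82), *BMI1* (0.79) and *CBX2* (0.79) lie farthest to the right, and that of *EZH1* (-0.56) lies to the left of 0.

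The catalytic subunits moved in opposite directions in the triple knockout. *EZH2* (chr7:148807257-148884321, minus strand) had 3162, 2035 and 2654 normalized counts in wild-type replicates 1 to 3 and 4313, 4034 and 4000 in *AGO1/2/3* knockout replicates. All 3 triple-knockout samples lay above every other sample of the series. *EZH2* was higher by 0.65 on the log2 scale (SE 0.18, a fold of 1.57, adjusted p = 0.00792). *EZH2* measured 3342, 3194 and 2236 in *AGO1* knockout, 3038, 3444 and 3235 in *AGO2* knockout and 3427, 2270 and 2940 in *AGO1/2* knockout samples, and these lines overlapped wild type. None of these 3 lines passed the test for *EZH2* (log2 fold changes 0.16, 0.31 and 0.14, adjusted p = 0.649, 0.227 and 0.664). Wild-type replicate 2, *AGO1* replicate 3 and *AGO1/2* replicate 2 were the low samples of their lines, so the ratio of highest to lowest replicate was 1.49 to 1.55 there, against 1.13 in *AGO2* and 1.08 in *AGO1/2/3* knockout cells.

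*EZH1* (chr17:42700275-42745049, minus strand) had 1014, 1147 and 963 normalized counts in wild type and 793, 683 and 647 in *AGO1/2/3* knockout samples. The triple-knockout samples all lay below wild type, and *EZH1* fell by 0.56 on the log2 scale (SE 0.15, adjusted p = 0.00673). *AGO1* knockout samples were spread over 722, 773 and 1074 normalized counts, with replicate 3 within the wild-type range. Their log2 fold change of -0.28 did not pass the test (SE 0.15, adjusted p = 0.275), and without *AGO1* replicate 3 it did (adjusted p = 0.0446). *EZH1* measured 1024, 873 and 955 in *AGO2* knockout and 834, 1061 and 1004 in *AGO1/2* knockout samples, and both lines overlapped wild type.

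The ratio of *EZH1* to *EZH2* within a sample does not depend on the scaling between samples. It was 0.321, 0.564 and 0.364 in wild type and 0.184, 0.170 and 0.162 in *AGO1/2/3* knockout samples, below each of the other 12 samples. The mean log2 ratio was -2.54 (SD 0.09, n = 3) in the triple knockout and -1.31 (SD 0.43, n = 3) in wild type. *AGO1*, *AGO2* and *AGO1/2* knockout cells had mean log2 ratios of -1.77 (SD 0.62), -1.77 (SD 0.21) and -1.56 (SD 0.47), and each had samples both inside and below the wild-type range. Counts follow transcript length too, so the ratio describes change and not the relative amount of the paralogues.

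Of the core subunits, *SUZ12* rose in 2 lines. *SUZ12* (chr17:31937007-32001038, plus strand) had 3892, 3353 and 4364 normalized counts in wild type, 4661, 5587 and 5464 in *AGO2* knockout and 5119, 5473 and 5649 in *AGO1/2/3* knockout samples. Both knockout lines lay wholly above wild type, with log2 fold changes of 0.44 (SE 0.13, adjusted p = 0.0288) and 0.48 (SE 0.13, adjusted p = 0.00657). The *AGO2* call was lost without *AGO2* replicate 2 or 3, *AGO1/2/3* replicate 2 or wild-type replicate 1 or 2 (adjusted p = 0.0541 to 0.146), with total counts (0.0806) and with only the lines compared (0.0765). *AGO1* and *AGO1/2* knockout samples overlapped wild type, at 3316 to 4567 and 4151 to 4852 normalized counts. The duplicated *SUZ12P1* locus, which can share reads with *SUZ12*, had 576 to 801 normalized counts per sample and passed the test in none of the 4 lines (adjusted p = 0.163 to 0.781).

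*EED* (chr11:86201212-86278813, plus strand), whose protein binds the PRC2 mark, passed the test against wild type in *AGO2* knockout cells. It had 857, 615 and 984 normalized counts in wild type and 1049, 1256 and 1223 in *AGO2* knockout samples, with no overlap. The log2 fold change was 0.52 (SE 0.17, adjusted p = 0.0391). This call was lost without any of 9 of the 15 samples (all 3 of *AGO2* and of *AGO1/2/3*, *AGO1/2* replicate 2 and wild-type replicates 1 and 2, adjusted p = 0.0506 to 0.188), with total counts (0.0957), with a replicate block (0.0522) and with only the lines compared (0.0933). *EED* measured 1178, 1001 and 791 in *AGO1* knockout, 948, 757 and 802 in *AGO1/2* knockout and 905, 987 and 937 in *AGO1/2/3* knockout samples. Those lines overlapped wild type, with log2 fold changes of 0.27, 0.03 and 0.20 (adjusted p = 0.357, 0.933 and 0.36). The *AGO2* line did not differ beyond the threshold from the *AGO1* line (0.25, adjusted p = 0.303) or the triple knockout (adjusted p = 0.14).

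Of the accessory subunits, *PHF19* showed the largest fold of the 10 genes in the triple knockout. *PHF19* (chr9:120855651-120894896, minus strand) encodes a protein that binds methylated histone H3 through its Tudor domain. It had 1249, 722 and 1284 normalized counts in wild type and 2372, 2505 and 2990 in *AGO1/2/3* knockout samples, which lay above every other sample. The log2 fold change was 1.27 (SE 0.26, a fold of 2.42, adjusted p = 0.00115). *PHF19* measured 1094, 1091 and 588 in *AGO1* knockout, 1374, 1589 and 1435 in *AGO2* knockout and 2088, 1086 and 1585 in *AGO1/2* knockout samples. *AGO2* knockout samples lay above wild type, *AGO1* and *AGO1/2* knockout samples overlapped it, and none of the 3 lines passed the test (log2 fold changes -0.23, 0.43 and 0.55, adjusted p = 0.657, 0.246 and 0.177).

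*MTF2* (chr1:93079235-93139079, plus strand), the paralogue of *PHF19* in PRC2, varied much less within lines. It had 1966, 1625 and 2014 normalized counts in wild type, 2370, 2516 and 2475 in *AGO2* knockout, 2347, 2226 and 2374 in *AGO1/2* knockout and 3204, 3398 and 3281 in *AGO1/2/3* knockout samples. These 3 lines lay above wild type without overlap, and the triple knockout lay above every other sample. The log2 fold change was 0.82 in the triple knockout (SE 0.11, adjusted p = 1.83e-05) and 0.39 in *AGO2* knockout cells (SE 0.10, adjusted p = 0.0203). The *AGO2* call was lost without *AGO2* replicate 2 (0.0953) or 3 (0.0855) or wild-type replicate 2 (0.115), with total counts (0.0828) and with only the lines compared (0.0711). The *MTF2* value was 0.31 in *AGO1/2* knockout cells and just missed the threshold (SE 0.11, adjusted p = 0.0566), and without *AGO1* replicate 1 or 3 it passed (adjusted p = 0.046 and 0.0368). *AGO1* knockout samples overlapped wild type at 2289, 2084 and 1763 normalized counts. The ratio of *MTF2* to *PHF19* was 1.57, 2.25 and 1.57 in wild type and at most 1.36 in the triple knockout, so all 3 triple-knockout ratios lay below the wild-type ones.

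*JARID2* (chr6:15246069-15522042, plus strand), a PRC2 cofactor of the Jumonji family that lacks demethylase activity, fell in *AGO2* knockout cells. It had 1524, 2123 and 1850 normalized counts in wild type and 1424, 1214 and 1267 in *AGO2* knockout samples, all below wild type. It fell by 0.49 on the log2 scale (SE 0.15, adjusted p = 0.0374). That call was lost without *AGO2* replicate 2 or 3, *AGO1* replicate 2, *AGO1/2* replicate 3 or wild-type replicate 2 (adjusted p = 0.0503 to 0.128) and with only the lines compared (0.0619). *AGO1* knockout samples were spread over 1858, 2406 and 2967 normalized counts with a log2 fold change of 0.40 that did not pass the test (SE 0.15, adjusted p = 0.133), and without *AGO1* replicate 1 it did (adjusted p = 0.038). In the *AGO1/2/3* knockout *JARID2* measured 1925, 1792 and 1822, inside the wild-type range, with a log2 fold change of 0.01 (SE 0.15, adjusted p = 0.964). *AGO1/2* knockout samples overlapped wild type at 1456, 1787 and 1537.

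**Figure D2:**
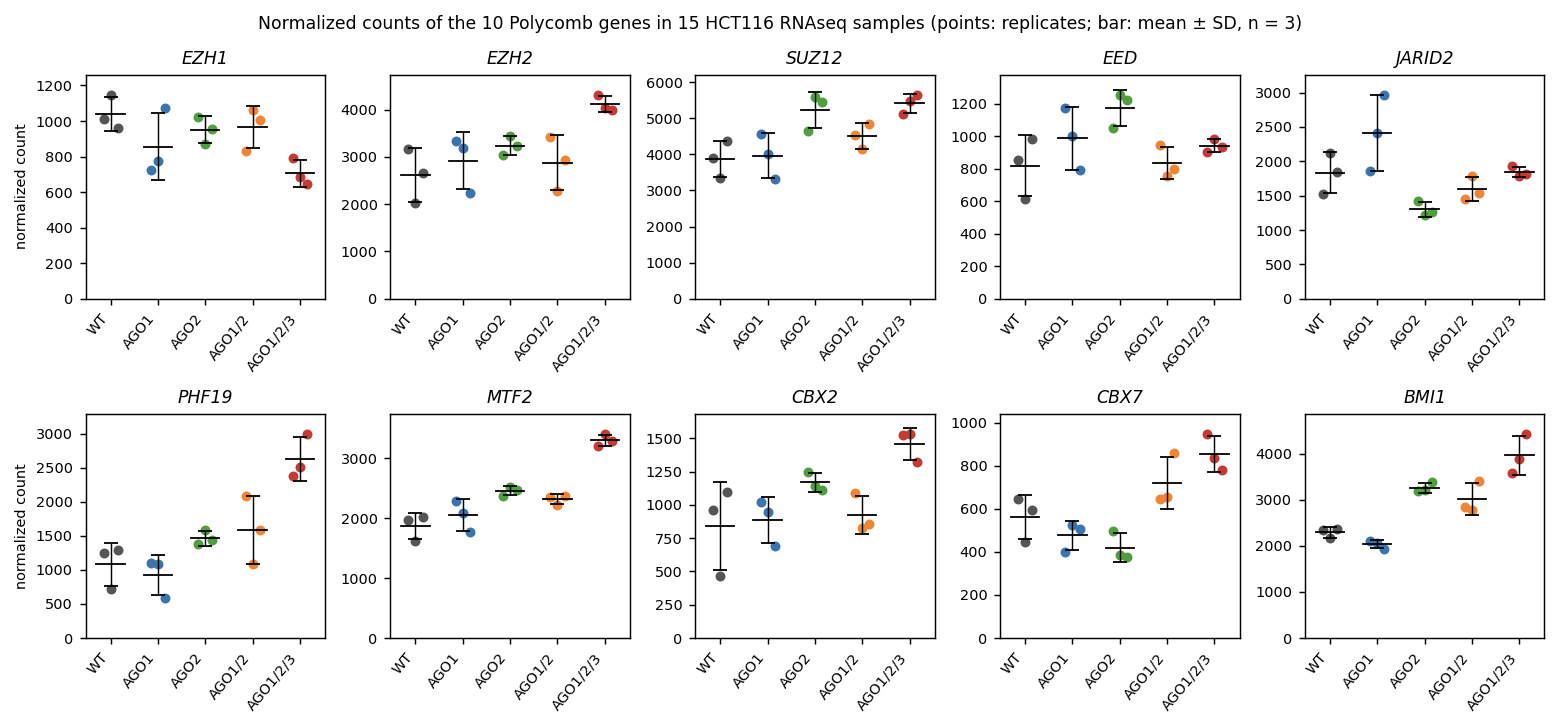
Normalized counts (y axis, from 0) of the 10 Polycomb genes in 15 samples, by line (x axis). Points are replicates and bars are the mean ± SD of 3. *EZH2*, *PHF19*, *MTF2*, *CBX2* and *BMI1* were highest in all 3 *AGO1/2/3* knockout samples, *JARID2* was lowest in the *AGO2* knockout, and wild-type replicates of *CBX2* spread from 466 to 1094.

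Of the PRC1 genes, *BMI1* (chr10:22321099-22331484, plus strand) rose in 3 lines. It had 2349, 2163 and 2374 normalized counts in wild type, 3189, 3207 and 3388 in *AGO2* knockout, 2841, 2782 and 3416 in *AGO1/2* knockout and 3590, 3880 and 4427 in *AGO1/2/3* knockout samples. All 3 lines lay above wild type without overlap, and the triple knockout lay above every other sample. The log2 fold changes were 0.51 (SE 0.10, adjusted p = 0.00528), 0.39 (SE 0.10, adjusted p = 0.0148) and 0.79 (SE 0.10, adjusted p = 1.9e-05). *BMI1* was the only member whose 3 *AGO1* knockout samples did not overlap wild type, at 2111, 2064 and 1944, with a log2 fold change of -0.17 that did not pass the test (SE 0.10, adjusted p = 0.351). Of all genes tested, 23.1% had separate replicates in that comparison. In the order of mean levels, *AGO1* knockout and wild type did not differ beyond the threshold, *AGO1/2* and *AGO2* knockout did not differ (0.11, adjusted p = 0.448), and *AGO1/2/3* lay above *AGO2* knockout by 0.28 (SE 0.10, adjusted p = 0.0367).

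*BMI1* overlaps the readthrough gene *COMMD3-BMI1* and lies beside *COMMD3*, and estimated counts could be shared between *BMI1* and the readthrough. *COMMD3-BMI1* had 94.3 to 253.7 normalized counts per sample and passed the test in none of the 4 lines (adjusted p = 0.222 to 0.805). *COMMD3*, which encodes a trafficking protein, rose by 0.65 without *AGO2* alone and by 0.57 in the triple knockout (SE 0.13 each, adjusted p = 0.00518 and 0.00256). The pseudogene *BMI1P1* held at most 1.2 normalized counts and *EZH2P1* was at 0 in each sample.

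*CBX2* (chr17:79778148-79787983, plus strand) had 962, 466 and 1094 normalized counts in wild type and 1525, 1530 and 1318 in *AGO1/2/3* knockout samples. The triple-knockout samples lay above every other sample, and wild-type replicate 2 was the lowest of all 15. *CBX2* was higher by 0.79 on the log2 scale (SE 0.23, adjusted p = 0.0123). With only the triple knockout and wild type in the fit it was 0.74 and did not pass (adjusted p = 0.0623). *AGO2* knockout samples at 1250, 1141 and 1114 lay above wild type but did not pass the test (0.47, SE 0.23, adjusted p = 0.153), and *AGO1* and *AGO1/2* knockout samples overlapped it at 693 to 1018 and 827 to 1086.

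*CBX7* (chr22:39120167-39152680, minus strand) had the fewest counts of the 10 genes in wild type. It had 645, 446 and 596 normalized counts in wild type, 401, 524 and 506 in *AGO1* knockout and 497, 384 and 376 in *AGO2* knockout samples, and these lines overlapped wild type. In *AGO1/2* knockout cells it measured 645, 654 and 860, and in *AGO1/2/3* knockout cells 947, 836 and 781, above wild type in both, in the double knockout by less than 1 normalized count at the nearest samples. *CBX7* was higher by 0.60 in the triple knockout (SE 0.16, adjusted p = 0.00831). The *AGO2* value of -0.42 did not pass (SE 0.17, adjusted p = 0.0831), and without *AGO2* replicate 1 or wild-type replicate 2 it did (adjusted p = 0.0355 and 0.0362). The *AGO1/2* value of 0.36 did not pass either (adjusted p = 0.169). The ratio of *CBX7* to *CBX2* was 0.398, 0.338 and 0.339 in *AGO2* knockout samples, all below the wild-type ratios of 0.671, 0.957 and 0.545.

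**Figure D3:**
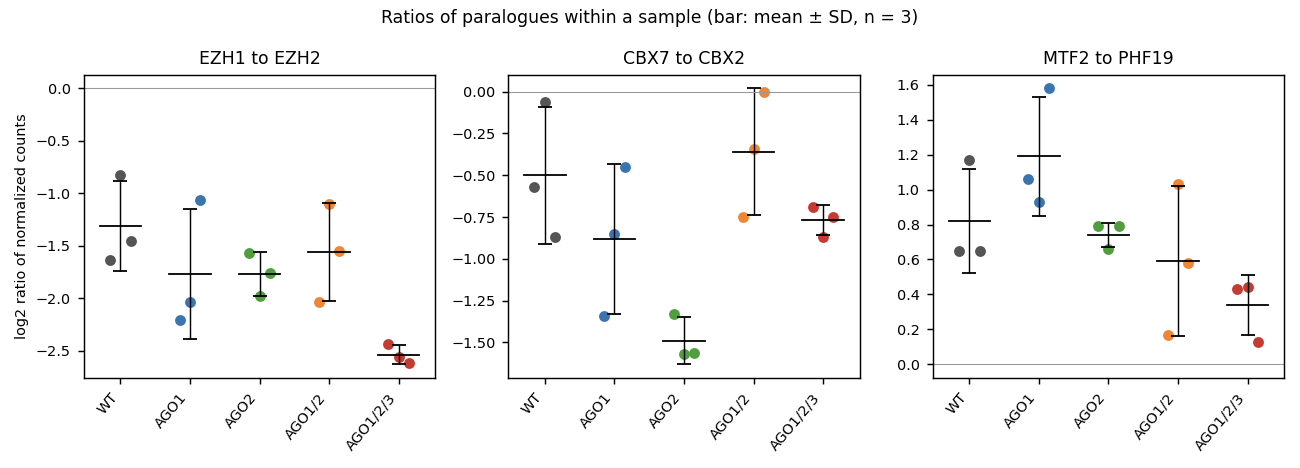
Log2 ratio of normalized counts within each sample (y axis) for 3 pairs of paralogues, by line (x axis), with points for replicates and bars for mean ± SD of 3. The *EZH1* to *EZH2* ratio was lowest in the *AGO1/2/3* knockout (mean -2.54), and the *CBX7* to *CBX2* ratio was lowest in the *AGO2* knockout (mean -1.49).

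The calls outside the triple knockout depended more on single samples. In *AGO1* knockout cells edgeR called 0 of the 10 genes, with 1 at an unadjusted p at or under 0.05 (*JARID2*), DESeq2 called 0, and 8.68% of all genes tested were called, 3.17% higher and 5.5% lower. Without *AGO1* replicate 1 or 3 the count was 1. In *AGO2* knockout cells 4 genes were called higher (*BMI1*, *MTF2*, *SUZ12*, *EED*) and 1 lower (*JARID2*), beside 19.3% of all genes tested called, 8.55% higher and 10.8% lower. *BMI1* remained called with each of the 15 samples left out. The count of 5 fell to 1 without *AGO2* replicate 2 or 3, to 2 without wild-type replicate 2, and to 3 without wild-type replicate 1 or *AGO1/2/3* replicate 2. With only *AGO2* knockout and wild-type samples in the fit *BMI1* alone was called, and with total counts in place of TMM factors 1 was called higher and 2 lower. Replicates of 7 genes did not overlap wild type in *AGO2* knockout cells, beside 37.1% of all genes tested.

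In *AGO1/2* knockout cells *BMI1* alone was called, beside 16.7% of all genes tested, 8.37% higher and 8.35% lower, and 3 genes (*BMI1*, *MTF2*, *CBX7*) did not overlap wild type, beside 29.7% of all genes. Without *AGO1/2* replicate 3 or wild-type replicate 2 *BMI1* was not called (adjusted p = 0.0891 and 0.0666). The comparisons with wild type share the same 3 wild-type samples.

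To ask what the loss of the third gene added, *AGO1/2/3* knockout cells were compared with *AGO1/2* knockout cells, which are separate lines. *MTF2* was higher by 0.51 (SE 0.10, adjusted p = 0.00259), *BMI1* by 0.40 (SE 0.10, adjusted p = 0.011) and *EZH2* by 0.52 (SE 0.18, adjusted p = 0.0485), and *EZH1* fell by 0.45 (SE 0.15, adjusted p = 0.0399), beside 22.0% of all genes tested called, 11.9% higher and 10.0% lower. *MTF2* remained called with each sample left out. The *EZH2* call was lost without any of 10 of the 15 samples (all 3 of *AGO2* and of *AGO1/2/3*, replicates 2 and 3 of *AGO1/2*, *AGO1* replicate 2 and wild-type replicate 3, adjusted p = 0.0657 to 0.237), with DESeq2 size factors (0.0509), with total counts (0.0805) and with 10 counts in every sample (0.0559). The *EZH1* call was lost without replicates 2 or 3 of either line (adjusted p = 0.0832 to 0.128) and with the replicate block (0.0622). The *BMI1* call was lost without *AGO1/2* replicate 1 or 2 or *AGO1/2/3* replicate 3 (adjusted p = 0.0574 to 0.0939). *PHF19* (0.72, SE 0.26, adjusted p = 0.0579) and *CBX2* (0.66, SE 0.23, adjusted p = 0.0537) did not pass although the samples did not overlap, and both passed in DESeq2's test (adjusted p = 0.0375 and 0.0344).

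Between the knockout lines, *JARID2* and *BMI1* set the *AGO1* and *AGO2* lines apart. *AGO2* knockout cells held less *JARID2* than *AGO1* knockout cells, with a log2 difference of -0.89 (SE 0.15, adjusted p = 0.00127), and more *BMI1* (0.68, SE 0.10, adjusted p = 0.000421) and *SUZ12* (0.40, SE 0.13, adjusted p = 0.0398). Of all genes tested 18.4% were called there, 9.67% higher and 8.73% lower. *AGO1/2* against *AGO1* knockout cells gave higher *BMI1* (0.56, adjusted p = 0.00101), *CBX7* (0.59, adjusted p = 0.0194) and *PHF19* (0.78, SE 0.26, adjusted p = 0.0482) and lower *JARID2* (-0.60, adjusted p = 0.012), beside 19.5% of all genes, 11.5% higher and 7.95% lower. Of these genes only *PHF19* had samples that overlapped between the *AGO1/2* and *AGO1* lines.

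Against *AGO2* knockout cells, the *AGO1/2* line held more *CBX7* (0.78, SE 0.17, adjusted p = 0.00359) and less *EED* (-0.49, SE 0.17, adjusted p = 0.0418), beside 23.9% of all genes, 12.8% higher and 11.1% lower. The triple knockout exceeded the *AGO2* line in *CBX7* (1.03), *PHF19* (0.84), *JARID2* (0.50), *MTF2* (0.42) and *BMI1* (0.28) and was below it in *EZH1* (-0.43), with adjusted p = 0.000144 to 0.0367 and 40.3% of all genes called, 21.3% higher and 18.9% lower. It exceeded the *AGO1* line in 7 members, among them *BMI1* (0.96, SE 0.10, adjusted p = 2.46e-06) and *CBX7* (0.84, SE 0.17, adjusted p = 0.000771), beside 40.6% of all genes, 21.8% higher and 18.9% lower.

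Whether the *AGO1/2* line departs from the sum of the single-knockout lines was tested as the difference between *AGO1/2* minus *AGO1* and *AGO2* minus wild type. Of the 10 genes, *CBX7* was above the sum by 1.02 (SE 0.24, adjusted p = 0.00764) and *EED* was below it by a log2 value of -0.77 (SE 0.23, adjusted p = 0.0319), beside 19.7% of all genes tested called, 11.5% higher and 8.26% lower. For *CBX7*, the single lines were at -0.24 and -0.42 and the double line at 0.36 against wild type. For *EED*, they were at 0.27 and 0.52, and the double line was at 0.03. The *CBX7* call remained with each of the 15 samples left out. The *EED* call was lost without *AGO1* replicate 1 or 2, *AGO2* replicate 2 or 3, *AGO1/2* replicate 2 or 3, or wild-type replicate 2 (adjusted p = 0.058 to 0.0913).

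Levels of proliferation markers moved with several of these genes. Summed over MKI67, TOP2A, PCNA, MCM2, MCM6, CCNB1, CDK1, BUB1, AURKA and E2F1, wild-type samples held 2091, 1032 and 2056 CPM, *AGO1* knockout 2582, 2100 and 1118, *AGO2* knockout 2555, 2963 and 2819, *AGO1/2* knockout 2886, 1610 and 2171, and *AGO1/2/3* knockout 3142, 2894 and 3115. Wild-type replicate 2, *AGO1* replicate 3 and *AGO1/2* replicate 2 were lowest in their lines, and the same samples were lowest in *EZH2*, *SUZ12*, *EED*, *PHF19*, *MTF2*, *CBX2* and *BMI1*. *EZH1* was at its highest in wild-type replicate 2, *AGO1* replicate 3 and *AGO1/2* replicate 2. In the *AGO1* and *AGO1/2* lines 0 of the 10 markers passed the test, beside 8.68% and 16.7% of all genes tested. Without *AGO2* alone 2 rose, beside 19.3% of all genes called, 8.55% higher. In the triple knockout 4 rose, beside 40.1% of all genes called, 20.3% higher. *TOP2A* rose by 1.07 in the triple knockout (SE 0.29, adjusted p = 0.00783). Without *AGO2* alone *MCM2* rose by 1.03 (SE 0.34, adjusted p = 0.0491). The *MCM2* call remained with 3 of the 15 samples left out in turn and not with the other 12 (adjusted p up to 0.134). The marker sums are RNA levels and do not measure growth. In the live-cell counts of the paper, the triple knockout had the slowest growth of the 5 lines. The *AGO2* and *AGO1/2* lines also lagged behind wild type there, and the *AGO1* line was similar to it. The order of the marker sums is therefore not the order of growth. The part of proliferation in the Polycomb values was not tested.

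Within the wild type, *AGO1* and *AGO1/2* lines, *BMI1* differed by 1.09 to 1.23 times between highest and lowest replicate while *PHF19* differed by 1.78 to 1.92 times. With the sample lowest in these markers removed from each of the 5 lines, a choice made after seeing the data, 7 of the 10 genes remained called in the triple knockout. Of 22932 genes tested in that fit, 3823 were called higher and 3954 lower in the triple knockout. *CBX7* was lost in that line (0.45, adjusted p = 0.0568). In *AGO1/2* knockout cells *BMI1* was then lost (0.40, adjusted p = 0.0659) and *PHF19* passed (0.53, adjusted p = 0.0416), and without *AGO2* alone *JARID2* was lost (adjusted p = 0.0622) and *CBX7* passed as lower (-0.69, adjusted p = 0.0265).

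**Figure D4:**
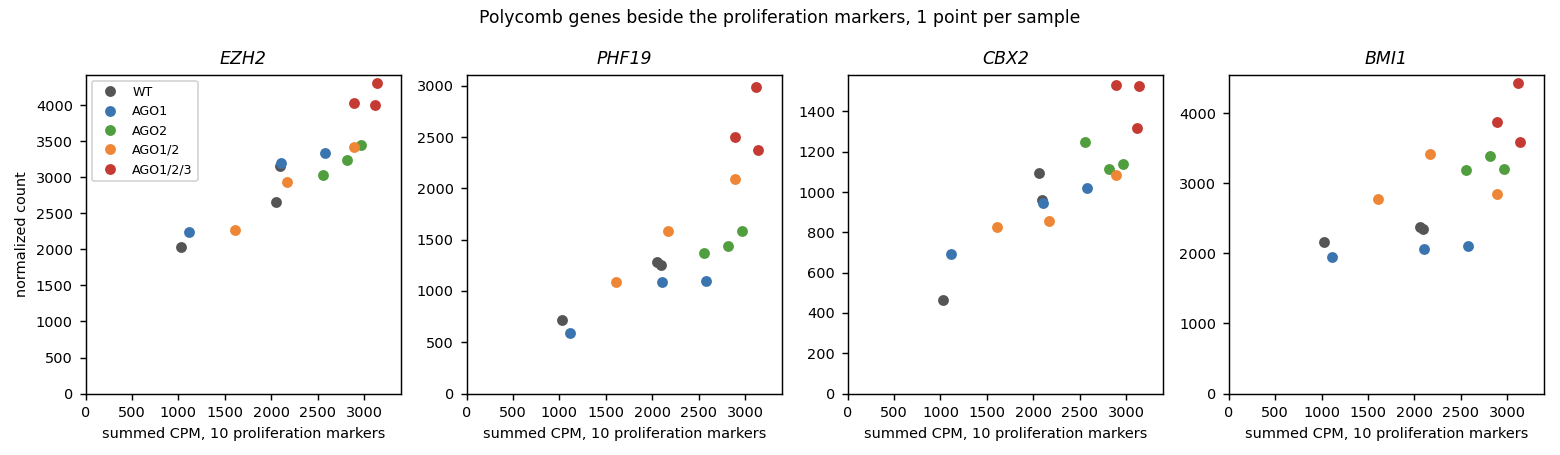
Normalized counts of *EZH2*, *PHF19*, *CBX2* and *BMI1* (y axes, from 0) against the summed CPM of 10 proliferation markers (x axis), 1 point per sample, coloured by line. The lowest wild-type and *AGO1* samples (1032 and 1118 CPM) had the lowest *EZH2*, *PHF19* and *CBX2*, while *BMI1* separated *AGO1/2* knockout from wild type and *AGO1* knockout at all marker levels.

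Compared per kilobase of merged exons, wild-type levels were highest for *SUZ12* (17.8 ± 2.3 CPM per kb, SD, n = 3) and *BMI1* (15.7 ± 0.79) and lowest for *CBX7* (2.26 ± 0.42). *MTF2* (9.51 ± 1.08), *JARID2* (8.83 ± 1.44) and *EZH2* (7.30 ± 1.58) were within 1 SD of a neighbour, and *PHF19*, *EZH1*, *CBX2* and *EED* lay between 3.52 and 4.95. The order depends on the length used. *EZH2* was at 29.7 CPM per kb with the MANE Select transcript length, a choice added after seeing the data, and 17.5 with the longest transcript. By the MANE length *EZH2* was the highest of the 10 in wild type, above *SUZ12* (25.9) and *BMI1* (19.5). It was also the highest by that length in the triple knockout (46.6, against 36.2 for *SUZ12* and 33.7 for *BMI1*). In the triple knockout *BMI1* (27.1 ± 2.9) and *SUZ12* (24.9 ± 1.2) were again the highest of the 10 per kb of merged exons.

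The other Polycomb genes measured were 40 listed genes of PRC2, PRC1 and the opposing enzymes, of which 37 were tested. In *AGO1/2/3* knockout cells 15 rose and 4 fell, with a median log2 fold change of 0.27 beside -0.01 for all genes tested, of which 40.1% were called. Of the other PRC2 genes 3 of 7 rose and 1 fell, of the other PRC1 genes 10 of 25 rose and 2 fell, and of the deubiquitinase genes and demethylases 2 of 5 rose and 1 fell. *LCORL*, which encodes a PRC2-associated protein, rose by 1.34 (SE 0.10, adjusted p = 1.23e-07), with 1114, 1056 and 1241 normalized counts in wild type and 2761, 2950 and 2910 in the triple knockout. *SCML2*, a PRC1-associated gene, rose by 1.43 (SE 0.17, adjusted p = 1.02e-05), from 276 to 332 up to 674 to 967 normalized counts.

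*KDM6B* encodes a demethylase that removes the PRC2 mark. It fell by 1.38 without *AGO2*, by 1.20 in the double and by 1.25 in the triple knockout (SE 0.30 each, adjusted p = 0.00827, 0.0123 and 0.00373). Its wild-type samples held 1753, 3795 and 1437 normalized counts, with replicate 2 far above the others, and without replicate 2 the values were -0.86, -0.67 and -0.74 (adjusted p = 0.0247, 0.0481 and 0.0134). The *AGO1/2* call was lost without *AGO1/2* replicate 1 (-1.09, adjusted p = 0.0508). In *AGO2* knockout cells 8 of the 37 other Polycomb genes rose and 5 fell, beside 19.3% of all genes called, in *AGO1/2* knockout cells 3 rose and 3 fell, beside 16.7%, and in *AGO1* knockout cells 0 rose and 4 fell, beside 8.68%. The shares in the last 2 lines are near those of all genes.

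**Figure D5:**
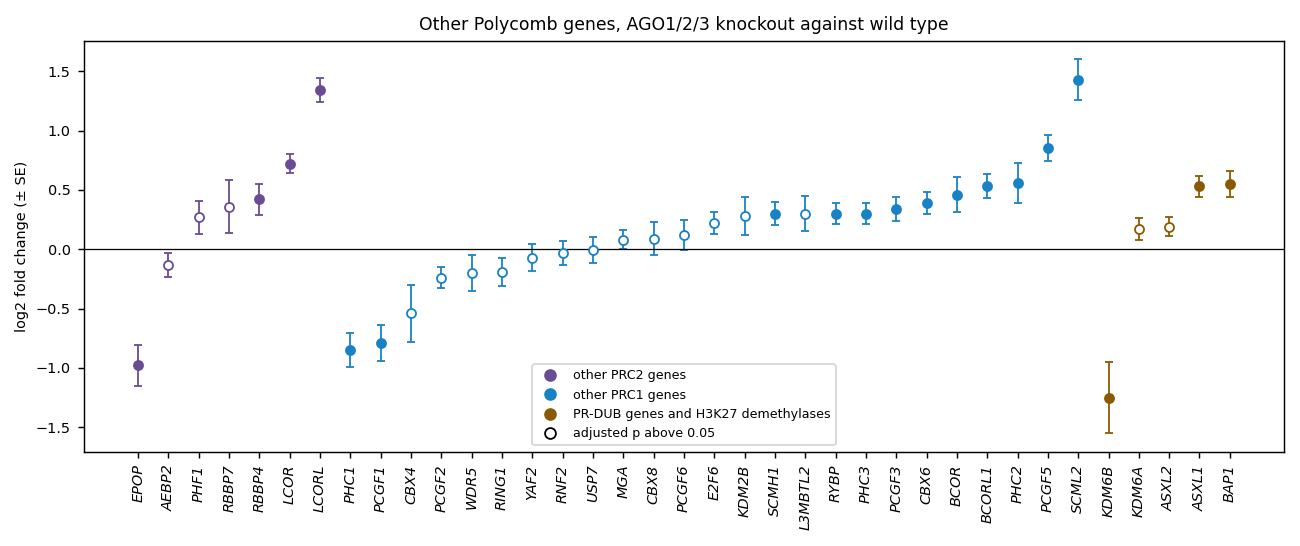
Log2 fold change (y axis) in *AGO1/2/3* knockout against wild type of the 37 other Polycomb genes tested (x axis), with the standard error as bars, colours for the 3 lists and open points where the adjusted p was above 0.05. *LCORL* (1.34) and *SCML2* (1.43) lie highest and *KDM6B* (-1.25) lowest.

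Of 15 textbook targets of Polycomb repression, 8 were tested, and in *AGO1/2/3* knockout cells 5 rose and 1 fell, beside 40.1% of all genes called, 20.3% higher and 19.8% lower. *HOXA9*, a homeobox transcription factor, rose by 2.07 (SE 0.10, adjusted p = 1.38e-09), from 1477, 1424 and 1564 to 7077, 5719 and 5916 normalized counts. *HOXA9* was also called higher in *AGO2* knockout (0.75, adjusted p = 0.000304) and in *AGO1/2* knockout cells (0.73, adjusted p = 0.000131). *CDKN2B*, a cell-cycle inhibitor, rose by 1.56 in the triple knockout (SE 0.40, adjusted p = 0.00529) and fell by 2.02 in *AGO2* knockout cells (SE 0.42, adjusted p = 0.00615), with 368, 1093 and 276 normalized counts in wild type. Without wild-type replicate 2, the high sample, *CDKN2B* was 2.38 higher in the triple knockout (adjusted p = 1.22e-05) and fell by 1.20 without *AGO2* (adjusted p = 0.0177). In *AGO1* knockout cells 1 of the 8 targets rose, beside 8.68% of all genes called, in *AGO2* knockout cells 1 rose and 2 fell, beside 19.3%, and in *AGO1/2* knockout cells 2 rose and 1 fell, beside 16.7%.

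Over the 15 samples, the genes whose log2 CPM was most like that of *EZH2* among 16315 genes were *KIF24* (Pearson r = 0.971), *CEP128* (0.970) and *CENPO* (0.965). For *BMI1* they were *VPS35* (0.966), *ARF6* (0.962) and *IPMK* (0.962). The samples share their lines and wild-type controls, so these values describe likeness only.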

How the data were processed

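The authors sequenced stranded, ribosomal RNA-depleted total RNA as paired ends, aligned the reads to hg38 with STAR and quantified them with Salmon. The authors deposited these values as estimated counts per gene, with no normalization for depth. The submitters' processing notes name STAR 2.5.3a and Salmon 0.11.0, and the methods name other versions. Counts were rounded, filtered with filterByExpr and scaled by TMM. A single edgeR 4.0.16 quasi-likelihood model (R 4.3.3) with a mean for each of 5 lines was fitted to 15 samples, with Benjamini-Hochberg adjustment over 22842 genes and calls at 0.05. Standard errors are the log2 fold change over the root of the F statistic. The biological coefficient of variation was 0.152. DESeq2 1.42.0 was an alternative. The fit was tested on simulated data. Symbols, exon lengths and 3′-UTRs come from GENCODE v44, which matched 57167 of 57875 genes. Log2 CPM used a prior count of 2. The pseudogene *SUZ12B* was not matched. The 8 eCLIP samples were not analysed here.

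Beyond the 10 members, genes of other lists were named if called with a log2 fold change of at least 1 in size, at most the 3 largest per list, line and direction, together with the targeted, overlapping and pseudogene loci and, for *EZH2* and *BMI1*, the 3 most similar genes (mean CPM of 1 or more). A gene that this rule names is not reported here. The members and lists were chosen with earlier results of these data known. Alternatives were another scaling, filter, test, set of samples, a replicate block and each sample left out.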

Additional observations from a re-analysis of the deposited data

Results flagged for a closer look

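*CBX7* and *EED* were noted because the effect of losing *AGO2* differed between wild-type and *AGO1* knockout backgrounds by a test of the difference itself. *CBX7* departed by 1.02 (SE 0.24, adjusted p = 0.00764, edgeR), and *EED* by -0.77 (SE 0.23, adjusted p = 0.0319). The contrast compares 4 separate lines of 3 samples, and 19.7% of all genes tested were called in it. The *AGO2* line is part of the contrast, so quantification mode cannot be told apart from genotype here. The *EED* call was lost with any of 7 samples left out. With 3 samples a group, no test for a single distant sample was made.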

How the results depend on the processing

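The samples are repeats of single lines, and depth limited no member (at least 376 normalized counts in every sample). Of 456 alternative values of the 20 called member values, 386 remained called, 70 did not and 0 reversed. Causes were not tested. With only the lines compared in the fit, members called were 1 in *AGO2* and 0 in *AGO1/2* knockout cells, other Polycomb genes 0, 5 and 3 and all genes 658, 1868 and 2116 (*AGO1*, *AGO2*, *AGO1/2*, the last 2 against 4408 and 3820), and 1 member was non-additive. With total counts, 3 members were called without *AGO2*, 1 was non-additive, and 7 other Polycomb genes were called without *AGO1*. In that *AGO1* comparison 511 of all genes were called higher and 1985 lower. That scaling moved the median change over all genes (log2) to -0.10, -0.14, -0.08 and -0.15 in the 4 lines in order, and left 733 higher and 3593 lower without *AGO2* (1952 and 2456 by TMM) and 3459 higher and 5962 lower in the triple knockout (4644 and 4522 by TMM). Without the low-count filter, 1 other Polycomb gene was called in *AGO1* knockout cells, beside 755 of all genes called higher and 1328 lower. Without each line's sample lowest in proliferation markers (chosen after seeing the data, as was the MANE length), 2 other Polycomb genes were called there. Beside them 465 of all genes were called higher and 988 lower, and 2546 genes were called in *AGO1/2* knockout cells.

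With 1 sample left out, members called ranged 0 to 1, 1 to 5, 0 to 2 and 8 to 8 in the 4 lines, other Polycomb genes 0 to 4, 3 to 16, 4 to 7 and 13 to 20, all genes 964 to 1984, 1529 to 5190, 2570 to 3973 and 7688 to 9468, and non-additive members 1 to 2. Signs changed only for values that were not called. By total counts these were *SUZ12* and *CBX2* in the *AGO1* line (-0.049, -0.007), *EED* in *AGO1/2* (-0.053), *JARID2* in *AGO1/2/3* (-0.13) and its non-additive value (0.022). *JARID2* in *AGO1/2/3* was -0.014 without the filter, -0.055 with 10 counts in every sample and -0.043 with only the lines compared, and non-additive *BMI1* was -0.012 without the filter. Without the samples lowest in proliferation markers, *EED* was -0.076 in *AGO1/2* and -0.028 in *AGO1/2/3*, and *CBX2* was -0.048 in *AGO1* and -0.082 in *AGO1/2*. With 1 sample left out the ranges were -0.029 to 0.289 (*EZH2*), -0.153 to 0.166 (*EED*) and -0.167 to 0.354 (*CBX2*) in *AGO1/2*, -0.078 to 0.171 (*SUZ12*), -0.45 to 0.031 (*PHF19*) and -0.211 to 0.31 (*CBX2*) in *AGO1*, -0.126 to 0.104 (*JARID2*) in *AGO1/2/3*, and -0.263 to 0.029 (*JARID2*) and -0.081 to 0.115 (*BMI1*) for the non-additive value.

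Same-numbered samples of different lines did not deviate together on average (mean correlation -0.00669 over 30 pairs, range -0.218 to 0.291). No pairing by number was seen, but with 3 samples a line this check cannot exclude it. With the replicate block, members called were 0, 4, 1 and 8 in the 4 lines and other Polycomb genes 4, 11, 6 and 19. Of all genes tested, 641, 1604, 1836 and 4585 were then called higher and 1140, 2194, 1763 and 4360 lower. Non-additive members were 2, beside 2446 of all genes called higher and 1678 lower. Over all pairs of lines 35 of 100 member tests were called, against 40 in the main fit. That fit called 8.68% to 40.6% of all genes per pair.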
